A study of Mus musculus with 8 samples.

Results

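Macrophages of the fetal epididymal duct were followed through 10 marker genes, Csf1r, Adgre1, Cd68, Mrc1, Lyve1, C1qa, C1qb, C1qc, Ptprc and Cx3cr1, chosen by name as widely used markers of tissue macrophages. All 10 were found by Ensembl identifier among the 46517 genes of the count table, and all 10 passed the filter on low counts. RNA sequencing was done on epididymal ducts, which arise from the Wolffian duct, dissected from mouse embryos at E18.5. The 4 libraries labelled Ptk7 cKO (conditional knockout, numbered 1, 2, 4 and 5) came from embryos with the disrupted Xst87 allele over a floxed Ptk7 allele. The 4 control libraries (numbered 1, 3, 4 and 6) came from embryos with a wild-type allele over the floxed Ptk7 allele. Both groups carried the T-Cre transgene and the mT/mG membrane reporter, so the controls also carried Cre and 1 allele it can cut. T-Cre is driven by sequences of T (brachyury), a gene of the early mesoderm, and is not a Cre of one cell type. Nothing in the labels ties a library to its own embryo or litter. The p-values therefore measure only how far these 8 samples scatter, and some of that scatter may be technical.

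Tissue macrophages of the fetus arise from progenitors of the yolk sac and fetal liver, enter organs before birth and divide there. They clear dying cells, take up debris through scavenger receptors, and depend on signalling through the receptor encoded by Csf1r, whose ligands are the products of Csf1 and Il34. Other markers mark position and function: Lyve1 and Mrc1 are high in macrophages of connective tissue near vessels, Cx3cr1 binds the chemokine of Cx3cl1, and the 3 C1q genes encode the chains that start the classical complement cascade. Lyve1 is also a marker of lymphatic endothelium, and Ptprc encodes CD45, carried by almost all white blood cells.

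Total counts were 24807970 to 26363401 in Ptk7 cKO libraries and 25466675 to 29590547 in control libraries, and 16469 genes were tested. Ptk7 itself stood at 7.33, 7.59, 12.5 and 194 CPM (read count normalised to library size) in the libraries labelled Ptk7 cKO 1, 2, 4 and 5, against 189, 112, 313 and 169 CPM in controls 1, 3, 4 and 6. The library labelled Ptk7 cKO 5 thus goes against its label, and the comparisons below compare labels, with each fold change also given without it. Control 3 stood apart from all other libraries over the whole table: chi-square over its degrees of freedom was 56.4 to 81.7 for the 7 pairs with it and 13.7 to 32.3 for the other 21 pairs. Markers of the dissected tissue were present. The 12 duct epithelium markers summed to 1040 to 1540 TPM (read count normalised to gene length and library size) in Ptk7 cKO and 1130 to 1330 TPM in control. The 10 mesenchyme markers summed to 5850 to 7670 TPM in Ptk7 cKO and 5780 to 6870 TPM in control. At an unadjusted p under 0.05 by edgeR, 6 of the 12 duct markers were lower and 1 higher, where 4.87% and 3.5% of all genes were. After adjustment edgeR called 0 of them and DESeq2 2, where they called 0% and 1.13% of all genes. The median log2 fold change (Ptk7 cKO over control) was -0.23 for duct and 0.06 for mesenchyme markers. Without Ptk7 cKO 5 it was -0.22 and -0.01. The part of tissue make-up in the macrophage marker levels was not tested.

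C1qa, C1qb and C1qc lie side by side on the minus strand of chromosome 4 (GRCm38; C1qa 136895917 to 136898803, C1qc 136889804 to 136893065, C1qb 136880129 to 136886187), with 3 exon blocks each and no other gene's exons over theirs. Upstream sequence from RefSeq (GRCm38.p6) was held for 6 of the 10 genes. The 4 stretches shown are those of C1qb, C1qc, Cd68 and Cx3cr1, whose levels varied together over the 8 libraries. Mrc1, not shown, also varied with C1qb, C1qc and Cx3cr1 (Pearson's r 0.81, 0.83 and 0.86). Without control 3, 0 pairs of markers passed the correlation test given below. Each is the 250 bases before the start annotated by RefSeq, read 5′ to 3′ on the gene's strand. For C1qc that start lies inside the span given above, so part of its window does too. Capitals mark GAGGAA or its reverse complement TTCCTC, the core letters bound by PU.1, the transcription factor encoded by Spi1 that macrophages need. The windows are C1qb at chr4:136886201-136886450, C1qc at chr4:136892915-136893164, Cd68 at chr11:69666171-69666420 and Cx3cr1 at chr9:120068297-120068546, all on the minus strand.
C1qb: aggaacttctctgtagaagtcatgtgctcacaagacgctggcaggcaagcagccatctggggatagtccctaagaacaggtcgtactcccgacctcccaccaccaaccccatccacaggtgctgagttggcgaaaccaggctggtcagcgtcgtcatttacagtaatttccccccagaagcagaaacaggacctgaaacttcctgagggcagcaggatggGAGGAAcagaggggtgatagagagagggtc
C1qc: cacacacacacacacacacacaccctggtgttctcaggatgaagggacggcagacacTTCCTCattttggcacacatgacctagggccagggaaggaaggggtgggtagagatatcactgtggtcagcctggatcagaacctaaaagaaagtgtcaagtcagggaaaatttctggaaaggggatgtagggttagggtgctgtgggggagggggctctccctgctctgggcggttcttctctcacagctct
Cd68: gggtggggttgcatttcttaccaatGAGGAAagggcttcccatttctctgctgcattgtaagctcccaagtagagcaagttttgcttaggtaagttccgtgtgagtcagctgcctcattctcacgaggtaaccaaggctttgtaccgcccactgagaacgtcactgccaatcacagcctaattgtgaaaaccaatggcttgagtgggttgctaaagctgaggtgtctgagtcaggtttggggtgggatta
Cx3cr1: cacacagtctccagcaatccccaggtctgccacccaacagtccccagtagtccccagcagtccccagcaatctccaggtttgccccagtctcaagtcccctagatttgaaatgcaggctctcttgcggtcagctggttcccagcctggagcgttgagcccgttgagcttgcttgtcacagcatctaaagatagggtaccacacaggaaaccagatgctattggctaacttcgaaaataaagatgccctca
The C1qb window held 1 match, beginning 30 bases before the start, C1qc 1 match at 193 bases and Cd68 1 match at 225 bases, and the Cx3cr1 window held none. Of the other windows, Mrc1 held 3 matches and 1 of 2 windows of Ptprc held 1. Thus 5 of 6 genes had the letters in some window. By window, 5 of 7 held them, while 23.3% of all 32851 upstream windows of this length did. In Ptprc, 1 window held TATAAA or TTTATA, found in 12.4% of all windows, and no other window of the 6 genes did. A match describes letters and is no evidence of binding.

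The complement chains were the most abundant markers per unit of length. C1qb averaged 79.5 ± 10.8 TPM and C1qa 73.4 ± 16.4 TPM over all libraries (SD, n = 8 each), and C1qb was above C1qa in 6 of the 8. C1qc stood at 42.8 ± 8.52 TPM (SD, n = 8), below C1qa in 8 of 8 libraries. The table counts 1931 bases of exon for C1qc, whereas its longest coding transcript in GENCODE M21 has 1203 bases, and with that length its mean was 68.6 TPM. Together the 3 chains summed to 191 to 245 TPM in Ptk7 cKO libraries and 126 to 220 TPM in control libraries.

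Below the complement chains came the growth factor receptor Csf1r at 21.7 ± 3.93 TPM, followed by the chemokine receptor Cx3cr1 at 17.0 ± 2.44 TPM and the hyaluronan receptor Lyve1 at 16.9 ± 2.76 TPM (SD, n = 8 each). Cx3cr1 and Lyve1 did not differ beyond their spread, and Cx3cr1 was above Lyve1 in 2 of the 8 libraries. Mrc1, the mannose receptor CD206, had 12.8 ± 2.76 TPM, Cd68, a glycoprotein of lysosomes, 10.3 ± 1.77 TPM, and Adgre1, the F4/80 antigen, 9.91 ± 2.15 TPM (SD, n = 8 each). Cd68 was above Adgre1 in 5 of the 8 libraries. With the longest coding transcript as the length, the means were 15.2 TPM for Lyve1, 15.1 TPM for Mrc1 and 14.2 TPM for Cx3cr1, so the order of these 3 depends on the length used. Ptprc stood far below, at 0.385 ± 0.0862 TPM (SD, n = 8), and at 1.39 TPM when the 5074 bases of its longest coding transcript replaced the 18313 bases of exon counted in the table. Csf1r shares 871 bases of exon with Hmgxb3 on the other strand, so its level depends on a strand and overlap setting that is not given in the sources used here.

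**Figure D1:**
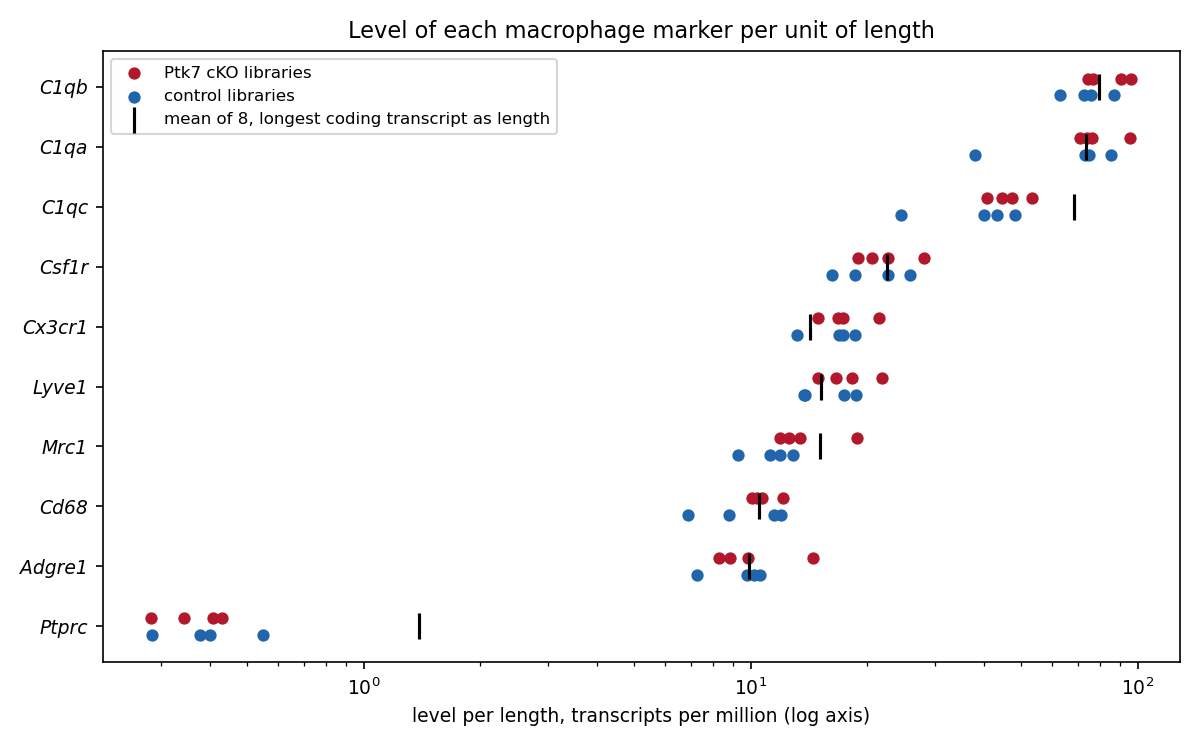
Level of each marker per unit of length (TPM, log axis) in the 4 Ptk7 cKO and the 4 control libraries, with a black tick at the mean of 8 libraries when the longest coding transcript is taken as the length. The C1q chains lie above 24 TPM in every library, and Ptprc below 0.6 TPM in every library whichever group it belongs to.

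The question put to the markers was whether their level in the duct differs between the labels. None was called: 0 of 10 passed edgeR's quasi-likelihood test after Benjamini-Hochberg adjustment over all genes, where 0% of all genes tested were called, and 0 of 10 passed at an unadjusted p under 0.05, where 8.37% of all genes did. DESeq2 called 0 of 10 as well, against 1.13% of all genes. The groups overlapped for all 10 markers, while 5.76% of all genes had no overlap. The log2 fold change (Ptk7 cKO over control) was above 0 for 9 of the 10, with a median of 0.17, against 51.4% of all genes above 0 and a median of 0.01. In bulk RNA, a different number of macrophages and a different amount of a transcript per macrophage cannot be told apart.

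Csf1r, the receptor on which macrophage survival depends, had 47.8, 46.0, 53.1 and 65.1 CPM in Ptk7 cKO 1, 2, 4 and 5, against 53.7, 37.4, 43.4 and 60.9 CPM in controls 1, 3, 4 and 6. The highest library was Ptk7 cKO 5 and the lowest control 3, with both groups interleaved between them. Its log2 fold change was 0.12 (SE 0.16, 95% interval -0.23 to 0.46, edgeR adjusted p = 0.849). Cx3cr1 had 33.5, 25.4, 30.2 and 38.2 CPM in Ptk7 cKO, against 30.6, 23.3, 30.9 and 33.6 CPM in control. The same libraries were highest and lowest, and the log2 fold change was 0.10 (SE 0.14, 95% interval -0.21 to 0.41, edgeR adjusted p = 0.851).

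Among the uptake receptors, Mrc1 showed the largest difference of the 10. It had 41.6, 34.6, 40.8 and 57.1 CPM in Ptk7 cKO, against 39.7, 28, 34.1 and 36.7 CPM in control. In 3 of the 4 Ptk7 cKO libraries it lay above every control, while Ptk7 cKO 2 lay below controls 1 and 6. The log2 fold change was 0.33 (SE 0.15, 95% interval -0.01 to 0.67, unadjusted p = 0.0544, edgeR adjusted p = 0.608). With Ptk7 cKO 5 left out, Mrc1 differed by 0.17 on that scale (SE 0.12, edgeR adjusted p = 0.721). Lyve1 had 24.7, 17.8, 20.7 and 27.0 CPM in Ptk7 cKO, against 22, 16.9, 23.3 and 17.4 CPM in control. Here control 6 was low, unlike for Csf1r, and the log2 fold change was 0.18 (SE 0.15, 95% interval -0.15 to 0.51, edgeR adjusted p = 0.763). Lymphatic endothelium also carries Lyve1, and the 11 markers of lymphatic and sinusoidal endothelium summed to 156 to 162 TPM in Ptk7 cKO and 154 to 179 TPM in control. The highest was Thy1 (79.7 TPM), which many other cells carry. Itga9, the gene of the list with the smallest p, averaged 32.7 TPM. Prox1, the defining transcription factor of lymphatic endothelium, averaged 0.129 TPM, and Ccl21a was at 0 in every library. Prox1 and Ccl21a were named after their values were seen and do not stand for the whole list. The part of lymphatic endothelium in the Lyve1 level was not tested.

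Adgre1 had 13.9, 13.1, 15.3 and 22.4 CPM in Ptk7 cKO, against 16, 11.2, 15.1 and 16.7 CPM in control. The library labelled Ptk7 cKO 5 alone lay above the control range, and its removal turned the log2 fold change of 0.13 (SE 0.18, 95% interval -0.27 to 0.53) to -0.06 (SE 0.14). Cd68 had 6.6, 5.99, 6.41 and 7.24 CPM in Ptk7 cKO, against 6.99, 4.10, 5.29 and 7.32 CPM in control. The Ptk7 cKO libraries all lay within the control range for Cd68, and the log2 fold change was 0.15 (SE 0.18, 95% interval -0.26 to 0.55).

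The C1q chains, which assemble into 1 hexameric complex, had log2 fold changes of 0.22 for C1qa (SE 0.21, 95% interval -0.24 to 0.69), 0.19 for C1qb (SE 0.13, 95% interval -0.10 to 0.47) and 0.26 for C1qc (SE 0.18, 95% interval -0.15 to 0.66). C1qa had 39.8, 36.2, 35.2 and 47.1 CPM in Ptk7 cKO, against 37.6, 18.7, 36.4 and 42.9 CPM in control. Control 3 was far below the others, and controls 1, 4 and 6 lay inside the Ptk7 cKO range. C1qc had 44.6, 35.9, 43.7 and 49.0 CPM in Ptk7 cKO, against 40.5, 22.4, 37.1 and 44.9 CPM in control, with the same low library. C1qb had 51.0, 36.9, 40.0 and 49.6 CPM in Ptk7 cKO, against 39.9, 32.5, 37.8 and 45.8 CPM in control. Control 3 was again the lowest but less far from the rest, so that its C1qa count was 50.2% of its Csf1r count while its C1qb count was 87.0% of it. The edgeR adjusted p was 0.792 for C1qa, 0.732 for C1qb and 0.735 for C1qc.

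Ptprc, the general white cell marker, was the 1 member below 0 (log2 fold change -0.13, SE 0.23, 95% interval -0.63 to 0.38, edgeR adjusted p = 0.891). It had 3.26, 2.37, 3.78 and 3.56 CPM in Ptk7 cKO, against 3.56, 2.46, 4.80 and 3.35 CPM in control. Control 4 was highest, and without it the log2 fold change was 0.05 (SE 0.22). That library also had the highest summed level of the 19 lymphoid markers (70.1 TPM, against 22.9 to 26.4 TPM in Ptk7 cKO and 25.1 to 27.4 TPM in the other controls) and of the 11 dendritic cell and antigen presentation markers (47.9 TPM, against 18.2 to 20.3 TPM in Ptk7 cKO and 14.7 to 22 TPM in the other controls). Their part in the Ptprc value was not tested.

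**Figure D2:**
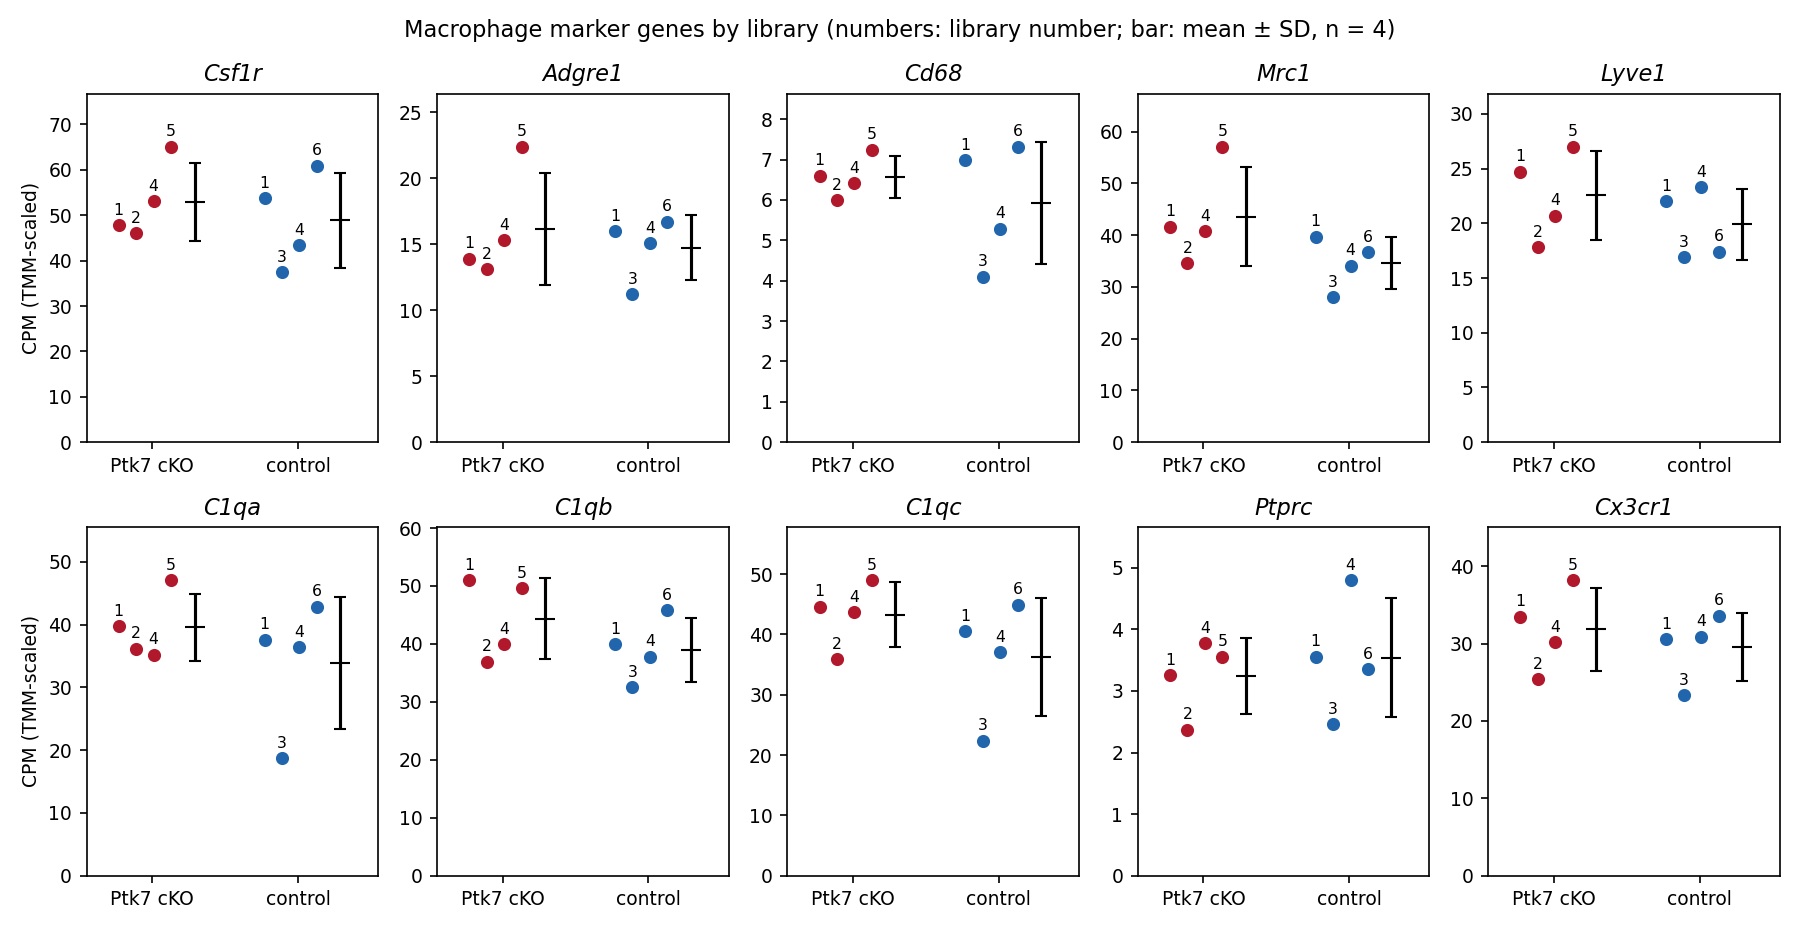
CPM of each marker in the 4 Ptk7 cKO libraries (left, red) and the 4 control libraries (right, blue), with library numbers and the mean ± SD of each group (n = 4). Control 3 is the lowest point for 9 of the 10 markers and Ptk7 cKO 5 the highest for 7, and no marker separates the groups.

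The spread between libraries was mostly shared by the markers, and it was not limited to them (values for other lists below). Control 3 was the lowest of the 8 libraries for 9 of the 10 markers, where 26.6% of all genes tested were lowest in it, and Ptk7 cKO 5 was the highest for 7, where 13% of all genes were. The markers summed to 295, 273, 285 and 362 TPM in Ptk7 cKO 1, 2, 4 and 5, against 286, 192, 271 and 313 TPM in controls 1, 3, 4 and 6. Control 3 had the highest total count of all libraries (29590547) and Ptk7 cKO 5 the lowest (24807970). Ptk7 cKO 5 also had the highest summed level of the erythroid markers (10100 TPM, against 3460 to 3620 TPM in the other Ptk7 cKO libraries and 1990 to 5620 TPM in control). The part of depth and of blood in the marker levels was not tested.

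Without the library labelled Ptk7 cKO 5, 8 of the 10 markers were above 0 (median log2 fold change 0.09, against 51.7% of all genes above 0), and 0 of 10 passed the adjusted threshold, where 0.00599% of all genes were called, or an unadjusted p under 0.05, where 8.74% were. The log2 fold changes were then 0.01 for Csf1r and Cx3cr1, 0.09 for Lyve1, 0.10 for Cd68, 0.13 for C1qa and C1qb, 0.19 for C1qc and -0.17 for Ptprc. Without control 3 the median was 0.02 and 9 of 10 were above 0. With both left out it was -0.05 and 4 of 10 were above 0. The median was thus above 0 without either library alone and below 0 without both.

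**Figure D3:**
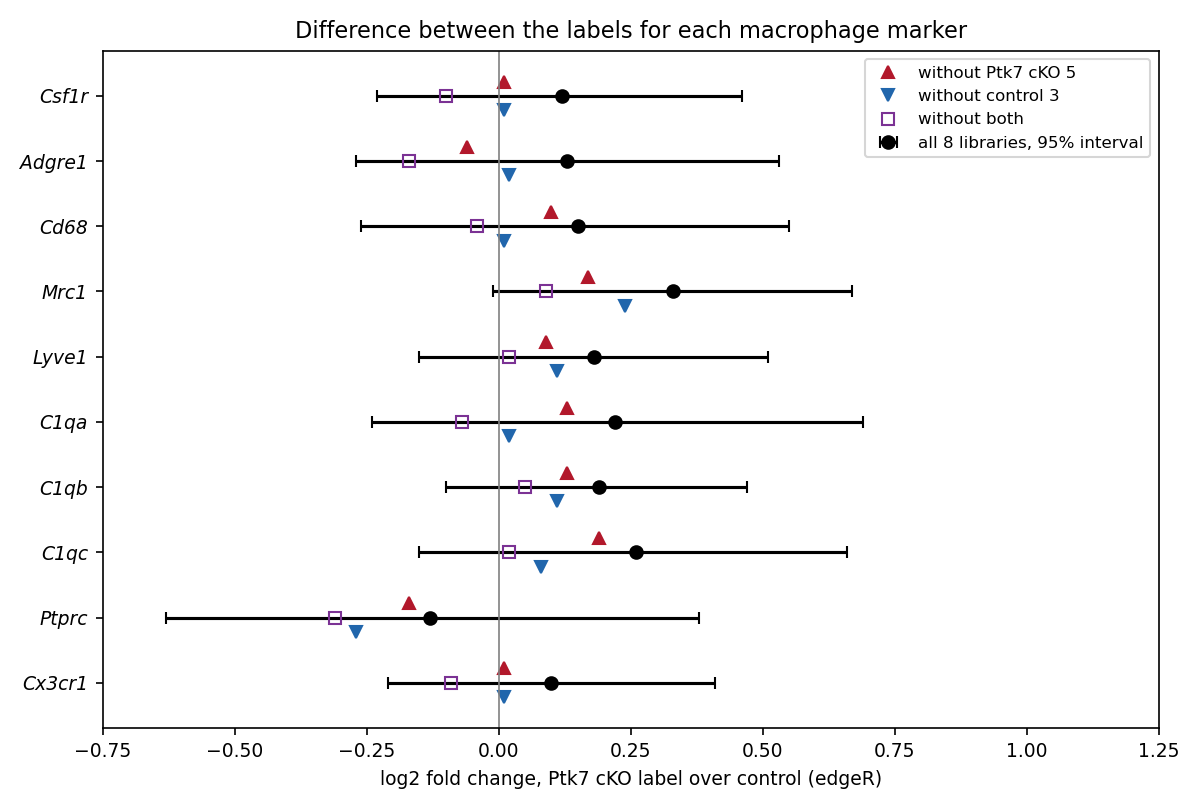
log2 fold change of each marker, Ptk7 cKO label over control, from all 8 libraries with its 95% interval (black), without Ptk7 cKO 5, without control 3 and without both. Every black interval includes 0, and without both libraries the values run from -0.31 for Ptprc to 0.09 for Mrc1.

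Across the 8 libraries all 45 pairs of markers had a positive Pearson's r of log2 CPM (median 0.79, lowest 0.32, highest 0.96). By exact two-sided permutation with Benjamini-Hochberg adjustment over the 45 pairs, 22 pairs passed for r and 14 for Spearman's rho. No share of passing pairs among other genes is given here. The counts therefore do not set the markers apart from other genes. Within the complement complex, C1qa and C1qc had r = 0.96 (exact permutation adjusted p = 0.0115; rho = 0.86, adjusted p = 0.0438) and C1qb and C1qc r = 0.85 (exact permutation adjusted p = 0.00632; rho = 0.93, adjusted p = 0.0251). Csf1r and Cd68 had r = 0.91 (exact permutation adjusted p = 0.00632; rho = 0.95, adjusted p = 0.0251). The pairs with Ptprc were the loosest, with a median r of 0.48 over 9 pairs against 0.80 over the other 36, and Csf1r and Lyve1 had r = 0.39 (exact permutation adjusted p = 0.368; rho = 0.38, adjusted p = 0.426). The relations were mostly weaker with 2 libraries left out for each pair. Without the 2 libraries farthest from the median of the first gene of a pair, the median r was 0.48 and 38 of 45 pairs stayed above 0. The libraries left out differ between pairs. Without Ptk7 cKO 5 and control 3, r was 0.59 for C1qa with C1qc and 0.89 for Csf1r with Cd68. For C1qb with C1qc it was 0.90 without Ptk7 cKO 1 and 5, with control 3 kept. The lowest value was -0.75 for C1qc with Ptprc, without Ptk7 cKO 2 and control 3. With 7 libraries the median r was 0.76 without Ptk7 cKO 5, where 1 pair passed, and 0.68 without control 3, where 0 pairs passed. Without both the median was 0.46 and 0 pairs passed.

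Relative to Csf1r, 7 of the other 9 markers varied less over the libraries than in CPM. The count of Adgre1 was 30.2% ± 2.80 of that of Csf1r in Ptk7 cKO and 30.5% ± 3.16 in control (SD, n = 4 each), and its coefficient of variation over 8 libraries was 9.13% as a ratio and 21.3% in CPM. For Cd68 the ratio was 12.5% ± 1.17 in Ptk7 cKO and 12.1% ± 0.851 in control, and for Mrc1 81.7% ± 6.52 and 71.9% ± 7.98 (SD, n = 4 each). Lyve1 and Ptprc varied more as a ratio. The ratio of Lyve1 ranged from 28.5% in control 6 to 53.6% in control 4, with a coefficient of variation of 18.8% against 17.5% in CPM. These ratios are descriptions with no test.

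The genes whose pattern was most like the mean of the markers, out of 13276 with a mean of at least 1 CPM, were Vav1 (r = 0.977 over 8 libraries), Bin2 (0.976), Itpkc (0.961), Fyb (0.961), Irf8 (0.960), Gpr179 (0.957), Sema7a (0.954) and Fermt3 (0.953). Vav1 is an exchange factor of blood cells, Fyb an adaptor of white cell adhesion, Irf8 a transcription factor of the macrophage lineage, and Fermt3 the blood cell kindlin that activates integrins. These genes were picked for description, while Bin2, Itpkc, Gpr179 and Sema7a were not. The 8 are thus not to be read as a blood cell list. All 8 were chosen as the highest r, were measured in the same libraries, and are given without a p. Without Ptk7 cKO 5 and control 3 the values were 0.94 for Vav1, 0.92 for Irf8, 0.87 for Bin2, 0.82 for Itpkc and Gpr179, and 0.71 for Fyb, Sema7a and Fermt3. Some lists of other cell types followed the markers as well. The median r with the markers was 0.59 for further macrophage genes, 0.64 for erythroid and 0.63 for megakaryocyte and platelet markers. Only 7 erythroid and 4 megakaryocyte and platelet markers were tested. It was 0.54 for mesenchyme, 0.53 for blood vessel endothelium, 0.47 for mast cells, -0.38 for duct epithelium and 0.0 over all genes tested. For other lists the median r was lower: 0.25 for lymphatic and sinusoidal endothelium, 0.24 for dendritic cells and antigen presentation, and 0.17 for monocytes. It was 0.16 for neutrophils and granulocyte progenitors, 0.12 for lymphoid markers and -0.09 for testis. The shared pattern is thus not limited to macrophage genes, and not every list shared it.

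**Figure D4:**
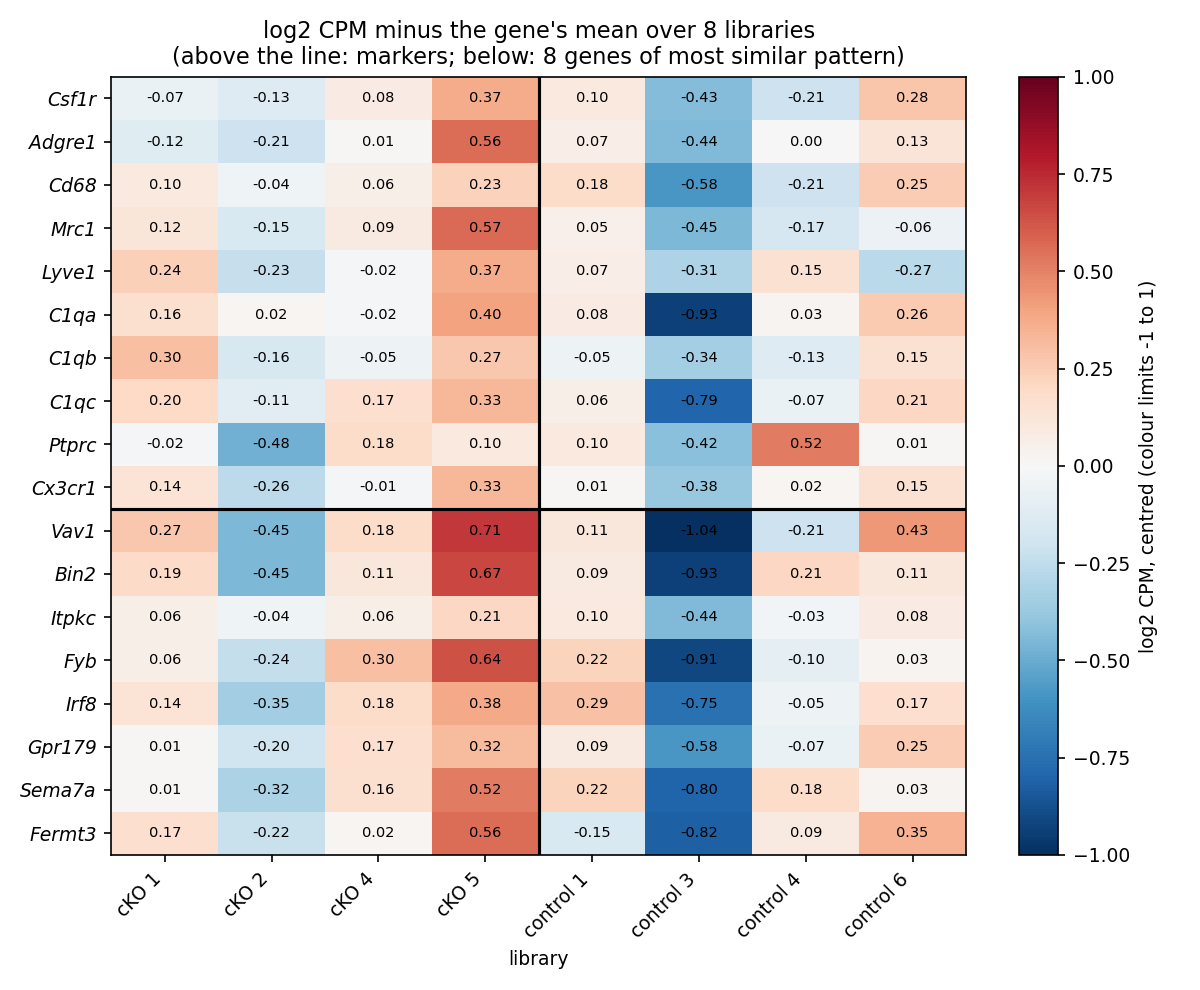
log2 CPM minus each gene's mean over the 8 libraries for the 10 markers (above the line) and the 8 genes with the most similar pattern (below), with the Ptk7 cKO libraries left of the controls. The column of control 3 is below 0 for every gene shown (-0.93 for C1qa), and that of Ptk7 cKO 5 is above 0 for every gene shown.

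The ligands of the marker receptors were measured in the same ducts. Csf1, the main macrophage growth factor, had 34.8, 40.1, 34.7 and 46.3 CPM in Ptk7 cKO, against 43.4, 35.0, 34.1 and 38.2 CPM in control (log2 fold change 0.05, SE 0.11, edgeR adjusted p = 0.921; -0.04 without Ptk7 cKO 5). Il34, the second ligand of the same receptor, had 7.60, 3.24, 1.37 and 3.27 CPM in Ptk7 cKO, against 11.7, 4.06, 4.14 and 6.62 CPM in control. Libraries numbered 1 were the highest of both groups, and the groups overlapped (log2 fold change -0.77, SE 0.47, edgeR adjusted p = 0.695; -0.70 without Ptk7 cKO 5). Cx3cl1, the ligand of the chemokine receptor, had 10.3, 8.66, 7.94 and 12.7 CPM in Ptk7 cKO, against 14.6, 14.7, 13.3 and 11.1 CPM in control. The library labelled Ptk7 cKO 5 reached into the control range, and the difference did not pass (log2 fold change -0.44, SE 0.16, edgeR adjusted p = 0.470). Without that library DESeq2 called Cx3cl1 lower (-0.58, SE 0.16, DESeq2 adjusted p = 0.0297), where it called 1.13% of all genes, and edgeR did not (adjusted p = 0.269). Gas6, which bridges dying cells to receptors of phagocytes, had 336, 351, 344 and 435 CPM in Ptk7 cKO, against 322, 170, 274 and 314 CPM in control. Its groups did not overlap, control 3 was again the lowest, and it did not pass over all genes (log2 fold change 0.44, SE 0.18, edgeR adjusted p = 0.529; 0.35 without Ptk7 cKO 5).

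Of 55 further macrophage genes, 52 were tested and 0 passed the adjusted threshold in edgeR or DESeq2; 1 was higher and 0 lower at an unadjusted p under 0.05, where 3.5% of all genes were higher and 4.87% lower, and the median log2 fold change was 0.13 (0.03 without Ptk7 cKO 5). They summed to 563 to 707 TPM in Ptk7 cKO libraries and 509 to 647 TPM in control libraries. The most abundant were the lysosomal protease gene Lgmn (77.6 TPM) and Tyrobp, an adaptor of activating receptors (55.4 TPM). The 1 higher gene, Lyz2, which encodes a lysozyme of macrophages, had 40.9, 32.5, 38.2 and 32.8 CPM in Ptk7 cKO, against 34.6, 29.1, 30.6 and 27.5 CPM in control (log2 fold change 0.25, SE 0.10, edgeR adjusted p = 0.550; 0.29 without Ptk7 cKO 5). Fcgr2b, the inhibitory antibody receptor, had a log2 fold change of -0.26 (SE 0.15, edgeR adjusted p = 0.686) and Clec12a, a lectin receptor, one of 0.49 (SE 0.24, edgeR adjusted p = 0.634). Without Ptk7 cKO 5 the values were -0.40 for Fcgr2b (SE 0.13, edgeR adjusted p = 0.418) and 0.54 for Clec12a (SE 0.26, edgeR adjusted p = 0.597).

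Of 18 transcription factors known from macrophages, 17 were tested and 0 passed in edgeR, while DESeq2 called 2, Cebpb and Id3, where it called 1.13% of all genes. Cebpb, a factor of myeloid and many other cells, had 28.2, 31.4, 28.6 and 22.9 CPM in Ptk7 cKO, against 17.6, 10.8, 18.4 and 14.2 CPM in control (log2 fold change 0.87, SE 0.16, edgeR adjusted p = 0.161, DESeq2 adjusted p = 0.000335). Id3, an inhibitor of helix-loop-helix factors, had 147, 139, 173 and 137 CPM in Ptk7 cKO, against 116, 111, 106 and 117 CPM in control (log2 fold change 0.41, SE 0.09, edgeR adjusted p = 0.185, DESeq2 adjusted p = 0.00372). For both the groups did not overlap, and in both Ptk7 cKO 5 was the lowest library of its group. Neither gene is limited to macrophages. Mitf, a factor of pigment cells, osteoclasts and macrophages, was without overlap too but called by neither tool (log2 fold change -0.38, SE 0.12, edgeR adjusted p = 0.382). Without Ptk7 cKO 5 the log2 fold changes were 0.95 for Cebpb, 0.44 for Id3 and -0.37 for Mitf.

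Of 28 further complement genes 22 were tested and 0 passed in edgeR or DESeq2, with a median log2 fold change of 0.08. Among them C1ra and C1s1, which encode the proteases that bind C1q, averaged 15.4 and 45.8 TPM, and Serping1, which encodes their inhibitor, 141 TPM. Clu, a fluid-phase inhibitor of complement, averaged 112 TPM. Of 25 lysosomal and phagocytic genes 0 passed in either tool, and their median log2 fold change was 0.02.

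Markers of other blood cells were set beside the macrophage markers. The 12 monocyte markers summed to 53.2 to 60.3 TPM in Ptk7 cKO and 48.4 to 53 TPM in control, mostly through Plac8 (49.2 TPM on average), which other cells also carry, while Ccr2 and Ly6c2 averaged 0.396 and 0.225 TPM. Of the lymphoid markers the highest was Ighm, an antibody heavy chain gene (11.2 TPM), and the T cell gene Cd3e averaged 0.0597 TPM. Ccr2, Ly6c2 and Cd3e, with Flt3 and Elane below, were named after their values were seen and do not stand for their lists. The smallest p of the monocyte markers was that of Hp (log2 fold change 0.96, SE 0.35, edgeR adjusted p = 0.477). Of the lymphoid markers it was that of Bcl11b (-0.65, SE 0.18, edgeR adjusted p = 0.302, DESeq2 adjusted p = 0.0503). For Bcl11b the groups did not overlap. Without Ptk7 cKO 5 the values were 0.93 for Hp and -0.80 for Bcl11b. Of the dendritic cell and antigen presentation markers the highest was the transcription factor gene Zbtb46 (4.58 TPM), and Flt3, a growth factor receptor gene, averaged 0.00782 TPM. Of the 13 neutrophil and granulocyte progenitor markers 9 were tested, 0 passed in edgeR, and DESeq2 called 1, S100a8, which encodes a calcium-binding protein of neutrophils; DESeq2 called 1.13% of all genes. S100a8 had 6.56, 3.40, 6.45 and 2.70 CPM in Ptk7 cKO, against 1.62, 1.86, 1.39 and 2.32 CPM in control (log2 fold change 1.41, SE 0.31, edgeR adjusted p = 0.197, DESeq2 adjusted p = 0.00239; 1.6 without Ptk7 cKO 5), while Elane was at 0 in every library. The most abundant of the list, Lcn2, which encodes an iron-carrier-binding protein that epithelia also make, had 172, 202, 114 and 171 CPM in Ptk7 cKO, against 222, 261, 210 and 209 CPM in control. Its groups did not overlap, with Ptk7 cKO below, and neither tool called it (log2 fold change -0.45, SE 0.15, edgeR adjusted p = 0.425; -0.47 without Ptk7 cKO 5). Of the 11 mast cell markers 8 were tested and 0 passed in either tool over all 8 libraries, where edgeR called 0% and DESeq2 1.13% of all genes. Of the 8 tested, 7 were above 0, with a median log2 fold change of 0.45 (0.56 without Ptk7 cKO 5). For the neutrophil list 7 of the 9 tested were above 0, with a median of 0.54 (0.71 without Ptk7 cKO 5). Over all genes 51.4% were above 0. The mast cell protease gene Cma1 had a log2 fold change of 0.66 (SE 0.21, edgeR adjusted p = 0.386). Without Ptk7 cKO 5, DESeq2 called Cma1 higher (0.77, SE 0.22, DESeq2 adjusted p = 0.0354) and edgeR did not (adjusted p = 0.318). Hba-a2, an alpha globin gene of red cells, was higher by 2.90 on the log2 scale (SE 0.39, edgeR adjusted p = 0.161, DESeq2 adjusted p = 4.33e-06), and by 2.48 without Ptk7 cKO 5 (SE 0.30, edgeR adjusted p = 0.0852). Its near-identical copies make the count uncertain. Cd74 and H2-Aa, genes of antigen presentation, stood at 23.5 and 8.32 CPM in control 4, against 2.40 to 4.57 and 0.777 to 1.73 CPM in Ptk7 cKO libraries and 3.10 to 5.77 and 0.899 to 1.90 CPM in the other controls.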

How the data were processed

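Gene expression was measured by RNA sequencing in 8 libraries, 4 labelled Ptk7 cKO and 4 control. Per the submitters' processing notes, STAR and featureCounts were used on GRCm38; for versions, strand setting and annotation, the sources used here give nothing. The deposited values are raw read counts, without normalization, listed with each gene's summed exon length. Symbols came from Ensembl identifiers (46005 of 46517 genes matched). No library was taken as a duplicate, since chi-square over its degrees of freedom was 13.7 to 81.7 for every pair.

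The test was that of edgeR 4.0.16 under R 4.3.3, with TMM factors, filterByExpr and the quasi-likelihood F test on group, adjusted by Benjamini-Hochberg at 0.05 over 16469 genes. The SE is the log2 fold change over the square root of F. The biological coefficient of variation was 15.2%, while the counting error of a marker in 1 library was 2.46% to 5.46% of its count, apart from Cd68 (7.09% to 9.02%) and Ptprc (8.51% to 12.7%). CPM are TMM-scaled, log2 CPM uses a prior count of 2, and TPM uses the deposited lengths. The fit was tested on simulated data with 50 genes changed at each size. At 1.25-fold, 1.5-fold, 2-fold and 4-fold, edgeR called 1, 20, 43 and 49 of them, and DESeq2 called 7, 30, 46 and 48. Of the 16269 unchanged genes edgeR called 9 and DESeq2 39, so calls by DESeq2 alone are less certain. In the measured libraries edgeR called 0 of the 16469 genes. Hba-a2 at 7.49-fold and S100a8 at 2.65-fold did not pass there (edgeR adjusted p = 0.161 and 0.197). The simulated counts are therefore not to be read as what edgeR can detect in the measured libraries.

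The markers and gene lists were chosen with earlier results of these data known. Genes to name were the markers, Ptk7, Csf1, Il34, Cx3cl1, the 8 of most similar pattern, and those with the smallest p (3 genes) and the highest TPM (2 genes) in each of the 5 macrophage, complement and lysosomal lists, or 1 of each in the other lists; not all are described. Prox1, Ccl21a, C1ra, C1s1, Ccr2, Ly6c2, Cd3e, Flt3 and Elane were named after their values were seen. Alternatives were other size factors, no filter or a stricter one, DESeq2 1.42.0, voom with sample quality weights (limma 3.58.1), a replicate block by library number, other values for the correlations, and leaving out libraries.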

Additional observations from a re-analysis of the deposited data

Results flagged for a closer look

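For 86 groups of 4 libraries (43 genes in CPM), the highest or lowest library was tested for its gap to the next against Dixon's critical value of 0.829, which chance passes in about 1 of 20 groups; 9 groups passed, and none of the 20 groups of the 10 macrophage markers did. Ptk7 stood at 194 CPM in the library labelled Ptk7 cKO 5, the highest of its group. The same library was the highest of its group for Gas6 (435 CPM) and Lgmn (102 CPM) and the lowest for Clec12a (1.39 CPM). In the control group, control 4 stood apart for Cd74 (23.5 CPM) and H2-Aa (8.32 CPM), control 6 for Clec12a (1.65 CPM) and Hba-a2 (22.1 CPM), and control 3 for Bin2, where it was the lowest (1.13 CPM).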

How the results depend on the processing

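No marker was called under any alternative run. The median log2 fold change of the 10 markers, 0.17 over 8 libraries, ran from 0.02 without control 3 to 0.26 without control 6, was 0.05 with voom and 0.06 with the replicate block, and was -0.05 without both Ptk7 cKO 5 and control 3. The number of genes called over all genes, 0 in edgeR, was 186 with DESeq2, 188 with DESeq2 without Ptk7 cKO 5, 1 with no filter on low counts, 7 with the replicate block, 3 without Ptk7 cKO 5 and control 3, and 0 to 2 with 1 library left out. The replicate block used the 4 libraries numbered 1 and 4; the labels do not say that numbers pair samples, and deviations of same-numbered libraries had correlations of -0.0916 and 0.0226. The number of correlated marker pairs, 22, was 0 without Ptk7 cKO 5 and control 3 together and 0 to 24 with 1 library left out, while their median r, 0.79, was 0.46 without both and 0.68 to 0.85 with 1 library left out. Leaving out 2 libraries and combining DESeq2 with a left-out library were chosen after seeing the data.

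Signs changed in 9 of 90 values of the markers under settings other than leaving out 1 library: Adgre1 was -0.05 with voom, -0.09 with the replicate block, -0.06 with DESeq2 without Ptk7 cKO 5, and Cx3cr1 was -0.02 with voom. Without Ptk7 cKO 5 and control 3, Csf1r was -0.10, Adgre1 -0.17, Cd68 -0.04, C1qa -0.07 and Cx3cr1 -0.09. With 1 library left out, Adgre1 ran from -0.06 to 0.22 and Ptprc from -0.27 to 0.05. Csf1 was -0.15 with the block, -0.04 with DESeq2 without Ptk7 cKO 5 and -0.07 without both libraries, and ran from -0.04 to 0.12 with 1 library left out. The cause was not tested.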
